A study of Mus musculus with 9 samples.

Results

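The genes described here encode the invariant signalling chains of the T-cell receptor complex (Cd3d, Cd3e, Cd3g and Cd247), the coreceptors (Cd4, Cd8a and Cd8b1) and the accessory receptors Cd2, Cd5 and Cd28. Every probe set that the array annotation mapped to these 10 genes was taken, which gave 19 of the 45101 probe sets on the array, measured on all 9 arrays. Cd8a had 5 probe sets, Cd247 had 4, Cd4 and Cd28 had 2 each, and the other 6 genes had 1. The arrays held T-cell lymphomas of G3 Atm-/-TERT-ER mice. Atm encodes a DNA damage kinase, which these mice lack, and TERT-ER is a fusion of the telomerase catalytic subunit with an oestrogen receptor that 4-hydroxytamoxifen (4-OHT) activates. All the tumours, controls included, carry these alleles and were grown in SCID mice, which lack mature T and B cells of their own. The 3 telomerase tumours came from recipients on 4-OHT at passage 4, the 5 ALT tumours came from recipients on vehicle at passage 4 and maintain telomeres by alternative lengthening (ALT), and 1 parental tumour was labelled telomerase-positive. Drug, telomerase activity and ALT differ together between the groups and cannot be told apart. The sources used here do not state ages, the transgene's promoter or whether each tumour was from a different animal. The p-values therefore cover the spread among these tumours alone, which may be technical.

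T cells detect antigen with a variable receptor that cannot signal alone. It is assembled with CD3 gamma, delta and epsilon and with the CD247 (zeta) chain, whose cytoplasmic tails carry tyrosine motifs that the kinases LCK and FYN phosphorylate and to which ZAP70 then binds. CD4 and CD8 bind class II and class I MHC molecules and bring LCK to the complex, CD2 and CD28 add adhesion and costimulation, and CD5 dampens the signal. In the thymus the CD3 chains appear first, early thymocytes then gain both coreceptors, and mature cells keep 1 of them.

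The labelled cell type was checked against T-lineage markers, the pan-leukocyte gene Ptprc and the receptor chain gene Ptcra. Thy1 had a signal of 5259 ± 286 (SD, n = 3) in telomerase tumours and 5427 ± 550 (SD, n = 5) in ALT tumours, and Ptprc, which encodes CD45, had 7382 ± 263 and 7554 ± 534. Ptcra, the surrogate alpha chain of immature thymocytes, had 2965 ± 344 and 3697 ± 677. Signals are MAS5 intensities on a linear scale, and array medians lay between 39.8 and 43.8. Of 8 natural killer cell genes 5 lay below the expression filter, with Ncr1 between 5.96 and 23.3 on the passage 4 arrays. The other 3 (Nkg7 at 629 to 1213, Prf1 and Klra8) lay above it and did not pass the test, and of 6 dendritic cell genes 5 lay below it. The summed signal of 5 B-cell genes was 789 to 821 in telomerase tumours and 860 to 1152 in ALT tumours. Cd79a and Ms4a1 lay below the filter, and none of the 3 tested passed with limma (2 at an unadjusted p under 0.05). Blk and Cd79b gave most of the sum, with means of 313 and 436 in telomerase tumours and 417 and 473 in ALT tumours. The part of such cells in the member values was not tested. Pancreatic acinar transcripts were abundant on 4 arrays (telomerase 3 and ALT 1, 2 and 5, with the summed signal of 13 genes between 89353 and 192799, against 307 to 1009 on the other 5), and skeletal muscle transcripts on telomerase 1 and the parental array (8945 and 14005, against 229 to 585 on the others).

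The 3 CD3 genes that lie next to each other on chromosome 9 were all lower in ALT tumours, while Cd247, on chromosome 1, did not pass the test. Cd3g fell most, by 0.82 on the log2 scale, Cd3e by 0.50 and Cd3d by 0.39. Log2 changes are ALT minus telomerase of log2(signal + 16), which understates changes of low signals, from limma fitted over 12369 genes with Benjamini-Hochberg adjustment over all of them. Of these genes 10.1% fell and 7.48% rose at an adjusted p under 0.05, the threshold used throughout. With quantile normalisation the balance turned, with 1126 genes that rose and 1047 that fell. In these bulk samples fewer cells of a type and less RNA per cell cannot be told apart.

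Cd3g encodes the gamma chain, which pairs with epsilon. Its signal was 9633, 8740.5 and 8109 in telomerase 1 to 3 and 4774, 5241, 5034, 5848 and 4108 in ALT 1 to 5. The lowest telomerase tumour lay above the highest ALT tumour. The mean was 1.77-fold higher in telomerase tumours (8828 ± 765, SD, n = 3, against 5001 ± 637, SD, n = 5), with a limma adjusted p of 0.000788 and a standard error of 0.105. The parental tumour, at 9368, lay within the telomerase range.

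Cd3d encodes the delta chain, the other partner of epsilon. It gave 9846, 9416 and 9308 in the telomerase tumours and 6700, 7379, 7238, 8262.5 and 6944 in the ALT tumours. The groups did not overlap, and ALT 4 came nearest to the telomerase tumours for both Cd3g and Cd3d. The change of -0.39 had a limma adjusted p of 0.00408 (SE 0.0674), and the parental signal was 9546.

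Cd3e, the epsilon chain, is shared by both heterodimers and is needed for surface receptor. Its signal was 2387, 1724 and 2159 in telomerase tumours and 1430, 1551, 1482, 1646 and 1229 in ALT tumours. The groups did not overlap, but telomerase 2 lay close to ALT 4. The change of -0.50 had a limma adjusted p of 0.0205 (SE 0.123), which became 0.103 without telomerase 1 and 0.0680 without telomerase 3.

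Cd247 encodes the zeta chain, which carries more of the tyrosine motifs than any other chain. Its brightest probe set read 2648, 2471 and 3189 in telomerase tumours and 3093, 2684, 2311, 3130 and 2378 in ALT tumours, with fully overlapping groups (log2 change -0.029, 95% interval -0.30 to 0.25). The other tested probe sets gave -0.079 (interval -0.46 to 0.30) and 0.13 (interval -0.21 to 0.47), and the fourth, at means of 17.1 and 22.2, lay below the expression filter. The intervals include a small rise and a small fall, and adjusted p-values ran from 0.612 to 0.901 (limma over 22354 probe sets).

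**Figure D1:**
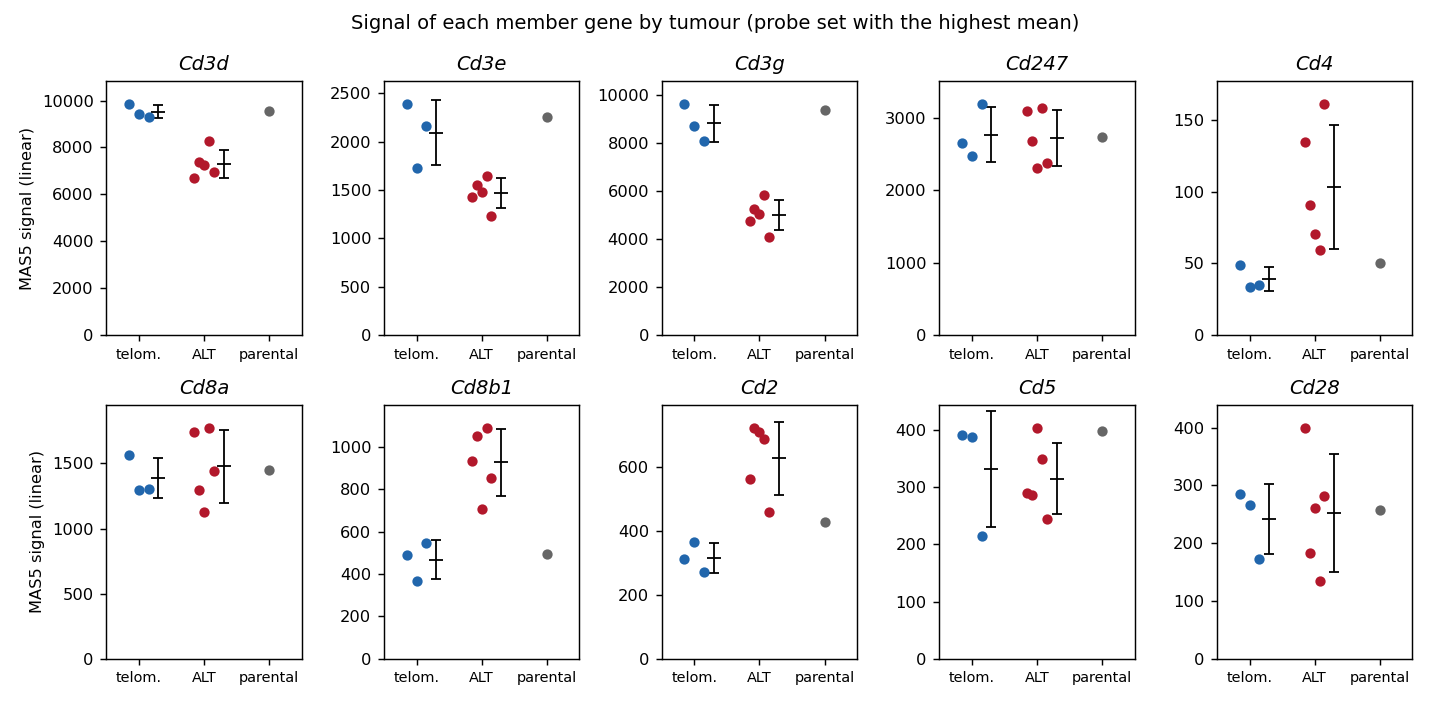
MAS5 signal (linear, axis from 0) of each gene's brightest probe set in the 3 telomerase, 5 ALT and 1 parental tumours; points are tumours and bars are mean ± SD of a group. Cd3d, Cd3e and Cd3g lie lower in every ALT tumour than in any telomerase tumour, Cd4, Cd8b1 and Cd2 lie higher, and the groups overlap for Cd247, Cd5, Cd28 and the brightest Cd8a probe set.

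Pairs of chains were compared within arrays. The log2 difference between Cd3g and Cd3d within an array was -0.032, -0.11 and -0.20 in telomerase tumours and -0.49, -0.49, -0.52, -0.50 and -0.76 in ALT tumours, a mean shift of -0.44 with no overlap between groups. The groups did not overlap either for Cd3g against Cd3e (-0.32) and for Cd247 against Cd3e (0.47). Each of these 3 pairs had an exact two-sided permutation p of 0.0357, which is the smallest that 3 against 5 tumours allows. Over the 9 pairs compared the Benjamini-Hochberg adjusted value was 0.0536, so none passed 0.05 after adjustment. Cd3d and Cd3e did not separate (shift 0.11, exact permutation p = 0.357).

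The promoters of these genes are shown because the 3 CD3 genes fell and 4 of the 5 Cd8a probe sets rose. The brightest Cd8a probe set did not pass the test. No promoter window was present for Cd8b1, Cd4 or Cd2. Each line gives the 250 bases before the gene start in RefSeq (GRCm38.p6), 5′ to 3′ on the gene's strand, with the letters CANNTG, the E-box bound by E proteins such as TCF3, in capitals.
Cd3g, chr9:44980432-44980681, minus strand: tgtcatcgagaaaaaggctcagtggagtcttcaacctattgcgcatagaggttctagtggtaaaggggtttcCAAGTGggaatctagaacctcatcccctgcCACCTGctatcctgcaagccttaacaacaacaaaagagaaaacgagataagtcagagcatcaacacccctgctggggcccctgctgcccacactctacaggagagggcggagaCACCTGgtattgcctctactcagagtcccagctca
Cd3d, chr9:44981536-44981785, plus strand: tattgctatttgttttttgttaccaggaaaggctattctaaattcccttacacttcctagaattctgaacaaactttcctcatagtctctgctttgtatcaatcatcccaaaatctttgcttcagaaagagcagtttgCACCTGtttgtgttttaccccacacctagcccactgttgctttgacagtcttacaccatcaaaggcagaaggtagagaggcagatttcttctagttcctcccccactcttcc
Cd3e, chr9:45009612-45009861, minus strand: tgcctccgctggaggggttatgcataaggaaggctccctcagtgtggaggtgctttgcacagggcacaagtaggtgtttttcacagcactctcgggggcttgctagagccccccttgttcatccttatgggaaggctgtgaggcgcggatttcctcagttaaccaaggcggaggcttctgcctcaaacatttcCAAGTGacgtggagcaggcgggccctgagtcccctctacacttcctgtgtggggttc
Cd8a, chr6:71373177-71373426, plus strand: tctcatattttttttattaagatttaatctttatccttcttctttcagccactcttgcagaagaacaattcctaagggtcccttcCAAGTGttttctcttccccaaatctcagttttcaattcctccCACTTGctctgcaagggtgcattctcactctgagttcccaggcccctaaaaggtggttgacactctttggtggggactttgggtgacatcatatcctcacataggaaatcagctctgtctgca
Cd3g and Cd3d are read from opposite strands and start next to each other. The Cd3g window held 3 E-boxes, and at least 3 were found in 12.2% of 32851 RefSeq promoter windows of that length, Cd8a held 2 (at least 2 in 31.8%), and Cd3d and Cd3e held 1 each (at least 1 in 66.2%). E-box letters read the same on both strands. The RUNX letters TGTGGT or ACCACA were in none of the 4 (14.0% of all windows). The TCF/LEF letters CTTTGA or TCAAAG were in the Cd3d window (13.8%), and the GATA letters AGATAA or TTATCT in the Cd3g window (9.99%). A match is a description of these letters, and windows were present for 6 of the 10 genes. Those of Cd247 and Cd5, which did not pass the test and are not printed, held 2 E-boxes each.

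Genes around the CD3 cluster had changes from -1.13 to 0.42. Their median was -0.24, against 0.011 over the tested genes of chromosome 9. Among the 5 tested genes on each side, 1 passed the threshold as a rise and 2 as falls (the neighbours were chosen after the CD3 values had been seen). Mpzl2, a cell adhesion gene beside Cd3e, fell by 1.13 (limma adjusted p = 0.0483), Ift46 fell by 0.41 (0.0288), and Ube4a, beside Cd3g, rose by 0.42 (0.0323). The mean of probe sets gave -0.75 (0.0465) for Mpzl2 and 0.23 (0.102) for Ube4a. These 3 calls were lost when single arrays were left out, as the closing section lists. Over chromosome 9 as a whole 6.28% of 701 tested genes rose and 7.13% fell.

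**Figure D2:**
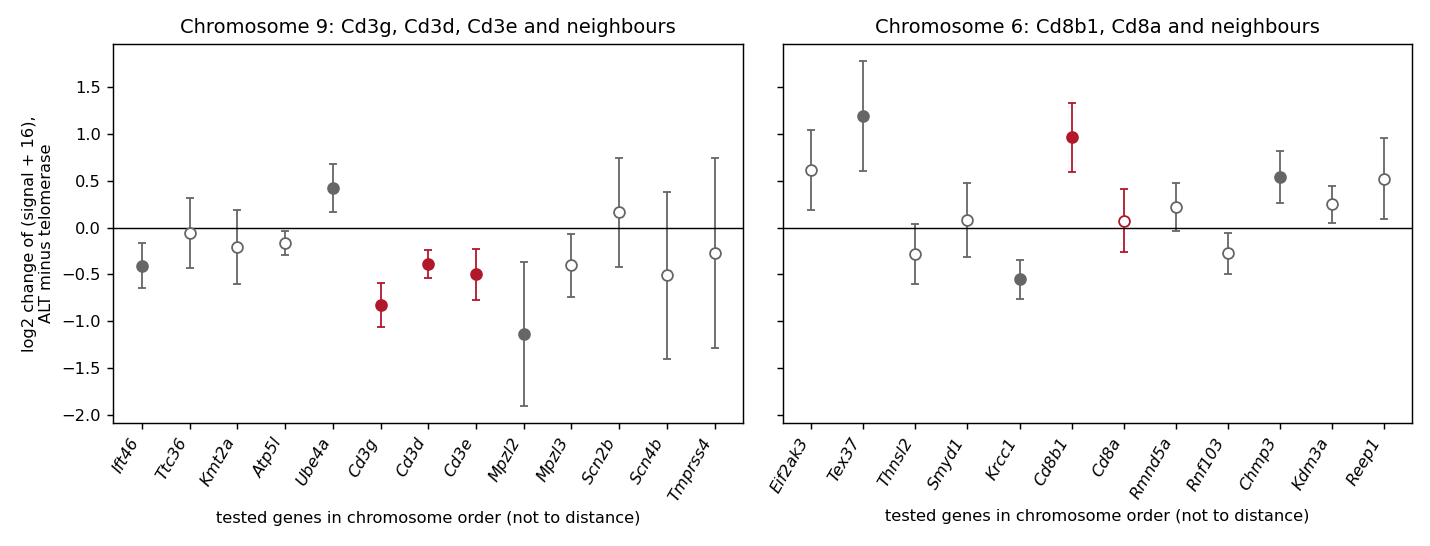
Log2 change of (signal + 16), ALT minus telomerase, with 95% intervals, for tested genes in chromosome order around the CD3 genes (left) and the CD8 genes (right); members are red, neighbours grey, filled points have a limma adjusted p under 0.05. Cd3g, Cd3d and Cd3e lie below 0 beside neighbours that range from -1.13 to 0.42, and the Cd8a point is its brightest probe set.

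Cd8b1 and 3 of the 5 Cd8a probe sets were about 2-fold higher in ALT tumours, the other 2 Cd8a probe sets gave 1.06-fold and 1.51-fold, and Cd4 was higher at a low signal. Of the 17 member probe sets above the expression filter 7 rose and 3 fell, where 7.72% and 12.5% of all 22354 probe sets did. In 10 of the 17 the groups did not overlap, against 26.4% of all tested probe sets. The remaining 2 probe sets, 1 of Cd247 and 1 of Cd4, lay below the filter and were not tested.

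Cd8a encodes the alpha chain, which forms CD8 as a homodimer or together with the beta chain. Probe set 1425335_at read 631, 611 and 731 in telomerase tumours and 1470, 1456, 1297, 1505 and 1412 in ALT tumours. Every ALT tumour lay well above every telomerase tumour, and the parental tumour, at 599, lay below them all. The mean was 2.17-fold higher (658 ± 64.3, SD, n = 3, against 1428 ± 80.5, SD, n = 5), a log2 change of 1.10 with SE 0.0895 and a limma adjusted p of 4.92e-05. Probe sets 1451673_at (0.97, limma adjusted p = 0.000163) and 1440811_x_at (1.10, adjusted p = 0.000173) gave like changes. The dimmer 1440164_x_at rose by 0.47 (limma adjusted p = 0.0220), a call that was lost without telomerase 2 (0.0850) or telomerase 3 (0.0772). Probe sets 1425335_at and 1451673_at were designed on the same sequence record, and the suffix x marks probes that may also bind other transcripts.

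The brightest Cd8a probe set, 1444078_at, did not follow the other 4. It read 1565, 1295 and 1302 in telomerase tumours and 1744, 1294, 1130, 1774 and 1444 in ALT tumours. The groups overlapped fully, with a log2 change of 0.074 (95% interval -0.26 to 0.41, limma adjusted p = 0.775 over probe sets). Its design record carries an expressed sequence tag name that RefSeq lists as an alias of Cd8a, and where its probes lie in the transcript was not analysed here. A summary that keeps the brightest probe set of each gene therefore lists Cd8a as not passing (adjusted p = 0.780), while the mean of its 5 probe sets rose by 0.74 (limma adjusted p = 0.000819).

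**Figure D3:**
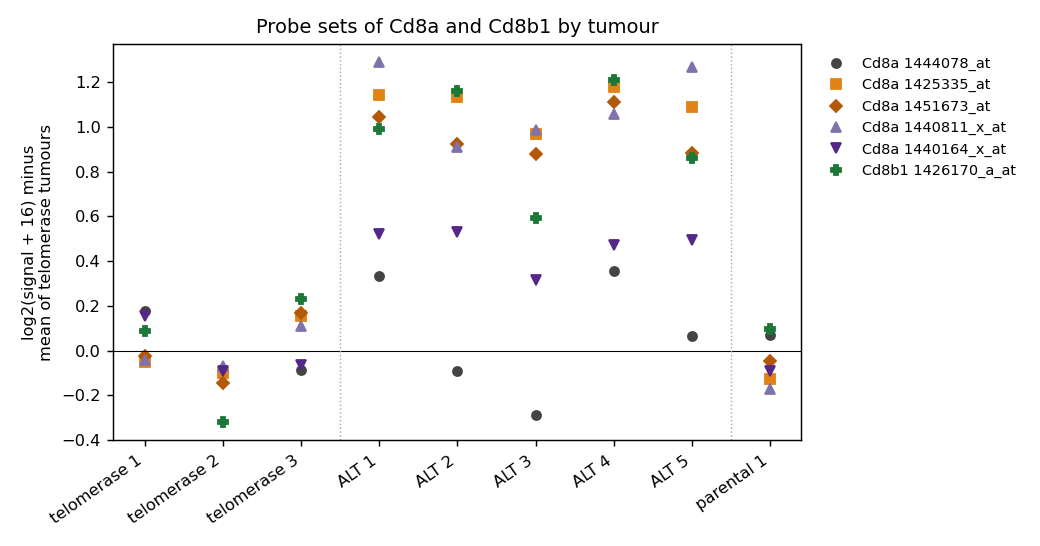
Log2(signal + 16) of the 5 Cd8a probe sets and the Cd8b1 probe set in each tumour, minus the mean of that probe set in the 3 telomerase tumours. The dark circles of 1444078_at lie on both sides of 0 in ALT tumours, while the other probe sets lie above 0 in all 5.

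Cd8b1 encodes the beta chain, found with the alpha chain on thymocytes and conventional cytotoxic T cells. Its signal was 492, 366 and 544 in telomerase tumours and 933, 1053, 705, 1090 and 852 in ALT tumours. The groups did not overlap, ALT 3 was the lowest ALT tumour, and the parental tumour, at 494, lay within the telomerase range. The mean was 1.98-fold higher (468 ± 91.5, SD, n = 3, against 927 ± 156, SD, n = 5), a log2 change of 0.96 with SE 0.166 and a limma adjusted p of 0.00372. With the brightest Cd8a probe set, as planned, the within-array difference between the beta and alpha chains shifted by 0.89. The groups did not overlap for it (exact permutation p = 0.0357, adjusted 0.0536). With probe set 1425335_at as Cd8a, a choice made after the probe sets had been seen, this difference shifted by -0.14 (adjusted exact permutation p = 0.367).

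Cd8b1 and Cd8a are neighbours on chromosome 6. Of the 5 tested genes on each side of them 2 rose and 1 fell, with changes from -0.55 to 1.19. Over the chromosome 8.85% of 633 tested genes rose and 9.32% fell.

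Cd4 had a low signal in all tumours. It read 48.6, 33.8 and 34.7 in telomerase tumours and 135, 90.9, 70.2, 59.4 and 161 in ALT tumours, and 50.1 in the parental tumour. The groups did not overlap, but ALT 4 lay close to telomerase 1, and the ALT values spread widely (103 ± 43.4, SD, n = 5, against 39.0 ± 8.30, SD, n = 3). The log2 change of 1.05 had a limma adjusted p of 0.0265 (SE 0.274). That call was lost without telomerase 1 (0.0560), telomerase 2 (0.0933), telomerase 3 (0.0801) or ALT 1 (0.0577), and when both probe sets were averaged (0.57, adjusted p = 0.0711). The second probe set lay below the filter at means of 14.3 and 16.8, and the table holds no detection calls. Within arrays the difference between Cd4 and the brightest Cd8a probe set shifted by 0.98, with no overlap between groups (exact permutation p = 0.0357, adjusted 0.0536). That shift was -0.18 with the mean of probe sets. ALT 5, the highest for Cd4, also had the highest summed signal of dendritic cell genes (229, against 114 to 158 in the other ALT tumours and 121 to 167 in telomerase tumours) and of macrophage genes (9833, against 6292 to 9252 on the other passage 4 arrays). In the dendritic cell list 5 of the 6 genes lay below the filter. Lyz2 alone gave 5535 of the macrophage sum in ALT 5, and read 5751 in ALT 3 and 3336 in telomerase 3. ALT 1, the next highest for Cd4, had a macrophage sum of 6419, and telomerase 3, with Cd4 at 34.7, had 9252. Of 11 macrophage genes 1 passed, Cd14, which rose by 0.83 (limma adjusted p = 0.0139). Mrc1 had a log2 change of -0.75 (limma adjusted p = 0.0741), and the median of the 11 was -0.12. The part of such cells in the Cd4 signal was not tested.

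**Figure D4:**
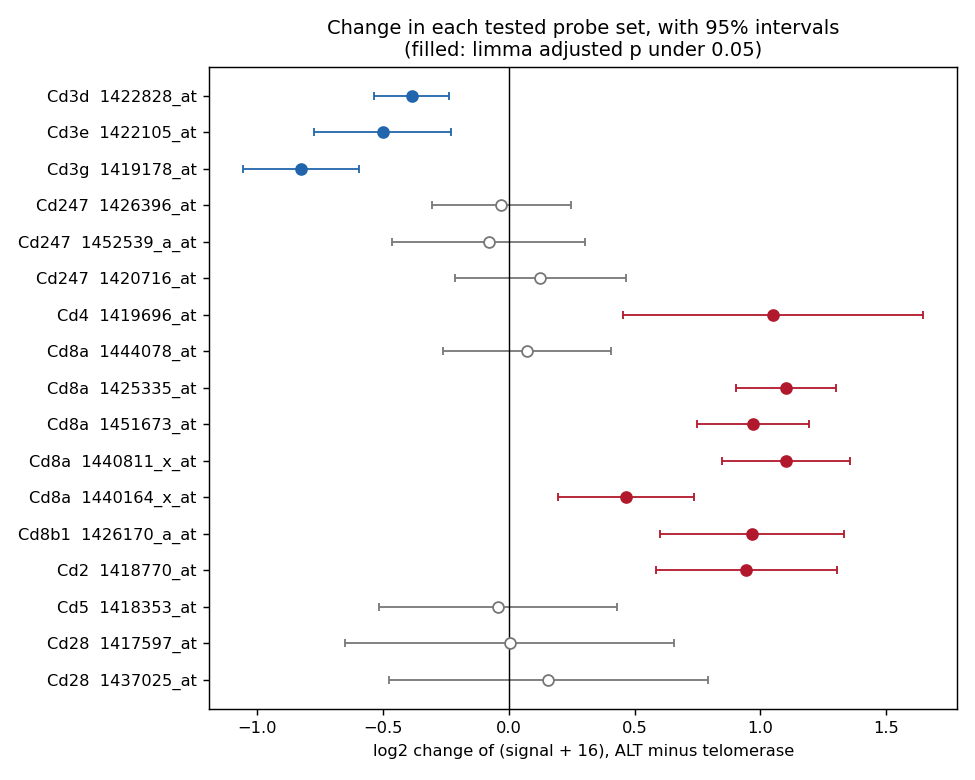
Log2 change of (signal + 16), ALT minus telomerase, for the 17 tested member probe sets, with 95% intervals from the limma fit over all probe sets; filled points have an adjusted p under 0.05. The CD3 gamma, delta and epsilon probe sets lie below 0, and 4 of 5 Cd8a probe sets, Cd8b1, Cd2 and 1 Cd4 probe set lie above 0.

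Among the accessory receptors Cd2 was about 2-fold higher in ALT tumours, and Cd5 and Cd28 did not pass the test. Cd2 encodes an adhesion receptor whose ligand in mice is CD48. Its signal was 311, 366 and 273 in telomerase tumours and 564, 724, 710, 689 and 459 in ALT tumours. The groups did not overlap, and the parental tumour, at 429, lay between them. The mean was 1.98-fold higher (317 ± 46.6, SD, n = 3, against 629 ± 114, SD, n = 5), a log2 change of 0.94 with SE 0.162 and a limma adjusted p of 0.00377. Within arrays the Cd2 to Cd3e difference shifted by 1.44 on the log2 scale, with no overlap between groups (exact permutation p = 0.0357, adjusted 0.0536). That separation was fixed in advance, since the groups already did not overlap for Cd2 or for Cd3e, in opposite directions. Cd48 itself read 1661 ± 156 (SD, n = 3) and 1542 ± 401 (SD, n = 5) (limma adjusted p = 0.649).

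Cd5 encodes a scavenger-type receptor whose level in thymocytes follows the strength of receptor signalling. It read 391, 388 and 214 in telomerase tumours and 290, 287, 403, 349 and 244 in ALT tumours. Telomerase 3 was the lowest of all 9 arrays, and the groups overlapped (log2 change -0.041, 95% interval -0.51 to 0.43, limma adjusted p = 0.919 over probe sets). Cd28 encodes the receptor for CD80 and CD86. Its brighter probe set read 286, 266 and 173 in telomerase tumours and 400, 183, 262, 135 and 282 in ALT tumours (log2 change 0.0044, interval -0.65 to 0.66, limma adjusted p = 0.994). The second probe set also had ALT 1 highest and telomerase 3 and ALT 4 lowest (0.16, interval -0.48 to 0.79). The wide intervals of both genes do not exclude changes of the size seen for Cd3e.

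Counted over genes, 3 of the 10 rose (Cd4, Cd8b1 and Cd2) and 3 fell (Cd3d, Cd3e and Cd3g). The other 4 (Cd247, Cd8a, Cd5 and Cd28) did not pass. Over all tested genes 7.48% rose and 10.1% fell. The median log2 change was -0.012 for the 10 members and -0.0062 over all tested genes. Of the 6 calls 4 held whichever array was left out, the exceptions being Cd3e and Cd4. Within the arrays without acinar transcripts (2 telomerase and 2 ALT) and within those with them (1 and 3) the 6 genes and the 4 rising Cd8a probe sets each kept their direction. That was fixed in advance, because the ALT and telomerase groups did not overlap for any of them, and only the sizes could differ. Without acinar transcripts 5 of these 10 passed, among them Cd3g (-0.76, limma adjusted p = 0.00912), Cd2 (1.02, 0.0124) and Cd8a 1425335_at (1.15, 0.00312). In that setting 833 of all 12369 tested genes passed, against 2170 in the main fit. Cd4 changed by 0.51 (limma adjusted p = 0.232) without acinar transcripts and by 1.49 (0.0630) with them, Cd3e by -0.37 (0.241) and -0.62 (0.125), Cd3d by -0.32 (0.0799) and -0.41 (0.137), and Cd8b1 by 1.02 (0.0562) and 0.77 (0.0810). The fit with acinar transcripts rests on a single telomerase tumour, whose spread was taken to equal that of the other group.

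The parental tumour has no replicate. For all 10 member probe sets that passed, its signal was nearer to the telomerase mean than to the ALT mean on the log2 scale and lay outside the ALT range. It lay within the telomerase range for 5 of them. Of the 10 probe sets 4 are of Cd8a. How often the same holds over all probe sets that passed was not computed, so it cannot be called a trait of these genes.

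T-lineage markers other than the members stand beside these values. Of 8 tested, 3 fell and 0 rose: Lef1, a transcription factor of early T-cell development, fell by 1.20 (limma adjusted p = 8.41e-05), Bcl11b, which commits cells to the T lineage, by 0.43 (0.00514) and Gata3 by 0.41 (0.0123, and 0.0535 without telomerase 2). Il7r, the interleukin 7 receptor, read 30.7 to 60.8 in telomerase tumours and 49.3 to 542 in ALT tumours and did not pass (log2 change 1.87, limma adjusted p = 0.0850). The summed signal of the 8 genes was 25983 to 26597 in telomerase tumours and 19891 to 24784 in ALT tumours. Thy1 had a log2 change of 0.040 (limma adjusted p = 0.795) and Ptprc of 0.031 (0.785). The part of the share of lymphoma cells in the member values was not tested.

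Other genes of receptor signalling rose more often than they fell. Of 58 tested genes in 6 lists 10 rose and 1 fell (17.2% and 1.72%, against 7.48% and 10.1% of all tested genes), with a median log2 change of 0.062. The count of rises was 6 without telomerase 1. The count of falls was 0 without telomerase 2, ALT 1 or ALT 2 and 5 without ALT 4. It was 4 with the mean of probe sets and 5 with the parental tumour in the telomerase group.

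Among 16 adaptors and effectors 5 rose and 1 fell, with a median of 0.28. Trat1, a transmembrane adaptor that associates with the receptor and the zeta chain, gave 157, 352 and 153 in telomerase tumours and 1992, 1275, 1218, 1630 and 1578 in ALT tumours. No tumour of one group came near the other, and the parental tumour, at 159, lay near telomerase 1 and 3. Trat1 rose by 2.79 (SE 0.259, limma adjusted p = 0.000142). Grb2, which links receptors to the RAS pathway, rose from 821 ± 135 (SD, n = 3) to 1906 ± 160 (SD, n = 5) (1.21, limma adjusted p = 0.000142), but the mean of its probe sets gave 0.40 (0.0101). Rasgrp1, the RAS activator of thymocytes, rose by 0.67 (0.000852, and 0.44 with the mean of its probe sets), Malt1, which carries the signal to NF-kB, by 0.61 (0.00933) and Grap2, an adaptor that joins LAT to LCP2, by 0.72 (0.00949). Nck2, which binds the epsilon chain and the cytoskeleton, fell by 0.42 (limma adjusted p = 0.0345, and 0.0514 to 0.128 without telomerase 2, telomerase 3, ALT 1, ALT 2 or ALT 3), and the mean of its probe sets gave -0.30 (0.183).

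Of 6 kinases Csk, the kinase that holds LCK inactive, rose by 0.44 (limma adjusted p = 0.0134, and 0.0620 without telomerase 1), and the other 5, Zap70 among them (0.20, adjusted p = 0.118), did not pass. Among 14 negative regulators 0 passed with limma, and 4 had an unadjusted p under 0.05. Of 17 costimulatory and inhibitory receptors 4 rose and 0 fell. Cd96, an adhesion receptor of T and natural killer cells, rose by 0.85 (limma adjusted p = 0.00281). Cd84 rose by 0.76 (0.0181, and 0.0796 without telomerase 1 and 0.0502 without telomerase 3, with 0.33 and 0.0590 for the mean of its probe sets), Tnfrsf18 by 0.69 (0.0396) and the inhibitory receptor Btla by 0.40 (0.0466). The Btla call was lost whichever array was left out, and that of Tnfrsf18 without telomerase 1, 2 or 3 or ALT 4 (adjusted p from 0.0629 to 0.151). Of 4 ligand genes 0 passed with limma, also at an unadjusted p under 0.05. The receptor chain list had 1 tested gene, Ptcra (0.30, limma adjusted p = 0.183, and 0.0413 without ALT 5).

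**Figure D5:**
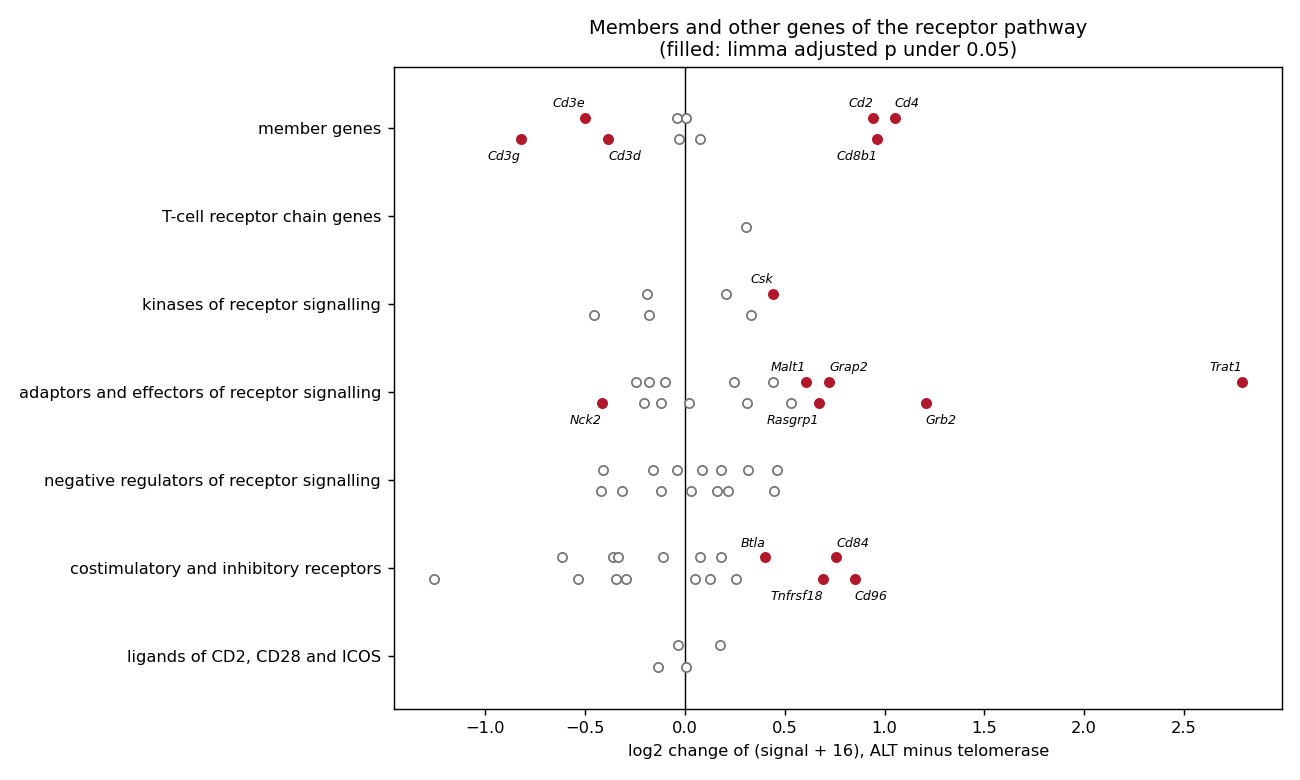
Log2 change of (signal + 16), ALT minus telomerase, of each tested gene (points) in the member genes and 6 lists of receptor pathway genes; filled and named points have a limma adjusted p under 0.05. Members lie on both sides of 0, and 10 of the 11 filled points in the other lists lie above it, Trat1 farthest at 2.79.

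Over the 9 arrays, the genes with profiles most like those of the 6 members that passed were found by the root mean square difference of centred log2 values. For Cd3d these were Bcl11b (0.048), Cnst (0.054) and Trip4 (0.056), and for Cd3e they were Rnf14 (0.067), Rtca (0.079) and Tcf3 (0.081). Cd3g was nearest to Naa35 (0.063), Clip1 (0.073) and Dus1l (0.084). Among the rising members Cd2 was nearest to Lrrc27 (0.12), Cd96 (0.13) and Gins3 (0.13), Cd8b1 to Prrt1 (0.13), Piwil2 (0.13) and Znrf1 (0.14), and Cd4 to Atrnl1 (0.22), Gamt (0.23) and Gtf2h4 (0.24). None of these 18 genes was another member. The measure depends on the size of a change and ranks all tested genes, so it sets apart members that move together by unlike amounts. Whether the members vary together was not tested.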

How the data were processed

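Total RNA was labelled with biotin and measured on 1-colour arrays. The authors deposited 1 MAS5 intensity per probe set and array, per the submitters' processing notes; its version and scaling target were not given in the sources used here. No further normalisation was applied. The platform annotation gave 1 gene to 34958 probe sets, several to 932 and none to 9211. Values were analysed as log2 of the deposited intensity plus 16. In the gene fit each of 18194 genes was represented by its brightest probe set on average. Features with a mean signal of 25.3 or less, which are 40% of probe sets, were not tested. ALT and telomerase tumours were compared with limma 3.58.1 in R 4.3.3 (intensity trend, two-sided, Benjamini-Hochberg over all tested features), and pairs of genes with exact permutation tests in scipy 1.17.1. The model was tested on simulated data. The number of arrays limits the precision. Named were all members, up to 4 genes per direction and list with the smallest p, 3 genes most like each called member, and Grap2 and the neighbours after their values were seen. Members and lists were chosen with earlier results of these data known. Alternatives changed filter, pseudocount, scaling, probe set summary, samples, block, variance model, threshold and acinar handling. Plots used matplotlib 3.10.9.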

Additional observations from a re-analysis of the deposited data

Results flagged for a closer look

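Of 19 member probe sets examined for an ALT tumour that stood apart from the other ALT tumours, 1 was flagged, and chance flags about 1 in 20 such groups. Cd8a probe set 1440164_x_at read 62.3 in ALT 3, below the 71.4 to 75.0 of the other 4 ALT tumours, and still above the telomerase tumours.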

How the results depend on the processing

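Of the 6 member genes past the threshold, Cd3d, Cd3g, Cd8b1 and Cd2 held whichever array was left out. All 6 kept their direction under every alternative run that tested them. Their groups did not overlap, so direction was fixed in advance for subsets of arrays and for changed pseudocount, filter, threshold or variance model. The table gives no detection calls, so how far Cd4 lay above background is unknown. With a log2 change of at least 1 required, 1 member gene rose and 0 fell (3 and 0 of the probe sets), and 2 signalling genes rose and 0 fell. In arrays without acinar transcripts 1 member gene rose and 1 fell, 1 member probe set fell, and 4 signalling genes rose and 0 fell. Counts of members and signalling genes in arrays with them are not given, because these hold a single telomerase tumour. These 2 settings use fewer arrays. The signalling genes that fell numbered 5 with the parental tumour added, 7 at an adjusted p of 0.1 and 4 with the mean of probe sets. Leaving out 1 array in turn gave 6 to 12 signalling genes that rose and 0 to 5 that fell.

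Over all tested genes 2170 passed, against 991 with the replicate block, 464 with a log2 change of at least 1, 833 without and 336 with acinar transcripts, and 1163 without telomerase 1.

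Genes that did not pass changed sign in some settings. Cd247 had 0.013 with quantile normalisation, 0.072 without acinar transcripts and 0.051 with the mean of probe sets, and -0.11 to 0.076 over left-out arrays; its second probe set had 0.17 without acinar transcripts and -0.19 to 0.043. Cd28 had -0.024 with the parental tumour added, -0.51 without acinar transcripts, -0.020 with the acinar covariate and -0.20 to 0.19 over left-out arrays; its second probe set had -0.45 without acinar transcripts and -0.14 to 0.31. Cd5 had 0.0093 with quantile normalisation, 0.33 with acinar transcripts, 0.16 with the covariate and -0.31 to 0.098. The brightest Cd8a probe set had -0.0074 without acinar transcripts. Thy1 had -0.087 with acinar transcripts, and Ptprc -0.0016 to 0.059 over left-out arrays. The cause was not tested.

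Whether same-numbered tumours are paired could not be settled. Deviations of the 3 same-numbered pairs correlated at -0.30, -0.40 and -0.57 over tested genes, but each pair joins an array with and one without acinar transcripts, and all 8 such mixed pairs were negative while all 7 pairs of one class were positive. With the replicate block 5 signalling genes rose, Cd5 had 0.013 and the brightest Cd8a probe set -0.016, and 2 member genes rose and 2 fell (Cd3e adjusted p = 0.0982, Cd8b1 0.0611). With the parental tumour added 6 of the 9 pairs passed 0.05 after adjustment. The Cd4 against Cd8a pair had -0.18 with the mean of probe sets and -0.052 with the second Cd8a probe set, and the Cd8b1 against Cd8a pair -0.14 with it; the second Cd8a probe set was chosen after seeing the data. The calls of Btla, Tnfrsf18, Mpzl2, Ift46 and Ube4a were also lost with no expression filter (adjusted p from 0.0506 to 0.0678). Among the neighbours, adjusted p-values over the left-out arrays that lost the call ran from 0.0813 to 0.188 for Mpzl2 (telomerase 1 and 3, ALT 1 to 4), 0.0557 to 0.123 for Ift46 (telomerase 1 and 2, ALT 1 and 3) and 0.0503 to 0.115 for Ube4a (telomerase 1 to 3, ALT 1, 3 and 5). With the expression filter at 60% Cd4 was not tested.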
